A study of Mus musculus with 6 samples.

Results

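Bnip3l, Bnip3, Fundc1, Fundc2, Bcl2l13, Fkbp8 and Phb2 encode proteins of the mitochondrial membranes that can tie a mitochondrion to the autophagy machinery. The 7 genes were taken by symbol, and all 7 had a row among the 35186 symbols of the count table. RNA came from memory B cells sorted from the spleen of C57BL/6J mice as cells that bind NP, a hapten used as the antigen. They were wild type (WT, 3 libraries) or labelled Nix-/-Bnip3-/- (DKO, 3 libraries), where Nix is another name of Bnip3l. Each library was made from about 1000 sorted cells. The labels give neither the age of the mice nor the deleted exons, and they do not say whether the alleles are deleted in all cells or whether each library is a separate mouse. The p-values below therefore measure the spread between these libraries, which may be technical.

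Mitophagy is the removal of mitochondria by autophagy. In the pathway that needs ubiquitin, the kinase PINK1 and the ligase parkin mark a damaged mitochondrion and soluble adaptors bind the mark. Many receptor proteins can work without that step: they sit in the mitochondrial membrane and carry a short motif that binds proteins of the LC3 and GABARAP family on the growing autophagosome. BNIP3 and NIX are such receptors, known for their induction by low oxygen and, for NIX, for clearing mitochondria from maturing red cells. FUNDC1 is a second hypoxia-linked receptor and FUNDC2 its paralog. BCL2L13 is a receptor with BCL-2 homology domains, FKBP8 one with a prolyl isomerase domain, and PHB2 (prohibitin 2) a protein of the inner membrane that becomes exposed when the outer membrane ruptures.

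The counts per gene can be read only as far as reads can be assigned to the gene, so the sequences were compared first. Bnip3 and Bnip3l are paralogs, but their coding sequences were far apart at the level of a read. The longest identical run between them was 14 bases, and 0 windows of 50 bases occurred in both transcripts. The same held for every other pair of the 7 genes, with 0 shared windows of 50 bases and a longest shared coding run of 20 bases, between Fundc1 and Fundc2.

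Copies elsewhere in the genome were closer than the paralogs. Of the 1707 windows of 50 bases in the Bnip3 transcript, 62.4% were also found in a transcript of another gene, 21.9% on the same strand. These were the processed pseudogene Gm16439 (chromosome 14, 44596665 to 44597228, mm10), which held 302 of the 512 coding windows, Gm6532 on the same chromosome with 244, and Gm9419 and Gm14506 with 37 and 20. On the opposite strand lay the long noncoding RNA AC160336.1, which spans Gm16439, and Gm45507, which is antisense to Bnip3 itself. Gm16439 was counted 3, 2 and 0 times in WT and 1, 13 and 0 times in DKO (libraries 1, 2 and 3, the order kept below). Gm14506 had 1 count in all, in DKO library 2, and the counts used here held no row under the other 4 symbols. For Bnip3l, 25.1% of 3189 windows were found in 1 other gene, the transcribed pseudogene Bnip3l-ps (chromosome 12, 18216542 to 18217673), with 444 of 605 coding windows. The counts used here held no row for Bnip3l-ps either. Bcl2l13 shared 8.4% of its windows with Bid, Fkbp8 shared 3.5% with Kxd1, and Phb2 shared 3.6% with Gm15884 and Gm14723, mostly where 2 genes overlap on opposite strands. Fundc1 and Fundc2 shared 0. How reads matching several places were treated, and whether strand was used, is not known from any label, which leaves the counts of Bnip3 and Bnip3l uncertain to that extent. Reads of overlapping genes on opposite strands cannot be told apart.

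**Figure D1:**
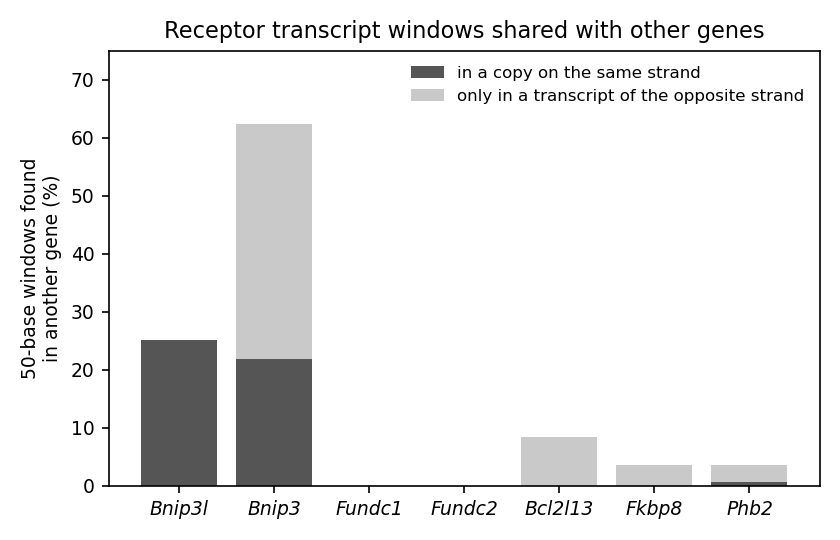
Share of all 50-base windows of each receptor transcript that occur in a transcript of another gene, split into windows in a copy on the same strand (dark) and windows found only on the opposite strand (light). Bnip3 stands at 62.4% and Bnip3l at 25.1%, while the other 5 genes lie between 0 and 8.4%.

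All 6 libraries were shallow, with 312908 to 517057 counts, so that 3 counts in a library stood for 5.80 to 9.59 CPM (reads per 1000000 of the library's total). Intervals and floors in what follows cover the error of counting alone, because reads of amplified cDNA can stem from 1 molecule. Symbols with at least 1 count numbered 17831 to 18486 in the WT libraries and 23580 to 24787 in the DKO libraries. WT library 2 had 18410 of them from 500527 counts, and DKO library 1 had 23580 from 444461 counts. Thus more genes were counted in each DKO library than in any WT library, and the part of this in the values of rarely counted receptors was not tested. Counts were tested with edgeR's quasi-likelihood test over 8895 genes, after scaling by TMM (trimmed mean of M values), a method that estimates 1 factor per library from the bulk of the genes. The factors ran from 0.6954 to 0.8125 in WT and from 1.2803 to 1.3753 in DKO. Of the 7 receptors 3 had enough counts to be tested: Bnip3l, Bnip3 and Bcl2l13. At an adjusted p of 0.05, edgeR called 0 genes (0% of those tested) in either direction. Its common coefficient of variation between libraries of a group was 0.915. With such a spread and few libraries, a gene that did not pass is not shown to be unchanged. At an unadjusted p under 0.05 it found 488 higher (5.49%) and 586 lower (6.59%) in DKO. DESeq2 called 218 higher (2.45%) and 383 lower (4.31%), none of the 3 receptors among them, and limma-voom called 0.

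Markers were read to check the labelled cell type. All 12 B cell markers on the list had a count in some library, with a summed level of 308 to 773 CPM in WT and 457 to 501 CPM in DKO. Levels were uneven: Blnk, a signalling adaptor, had 106, 21 and 58 counts in WT and 25, 36 and 37 in DKO, and Ms4a1, the gene of CD20, had 28, 0 and 8 against 42, 70 and 65, but Cd79a, part of the B cell receptor, had 3, 0 and 0 against 0, 2 and 4. The 10 memory B cell markers summed to 169, 53.9 and 106 CPM in WT and 351, 298 and 266 CPM in DKO. These sums did not overlap on library totals, as was so for 24.4% of single tested genes in this direction. After TMM scaling they did overlap. The 7 plasma cell markers in the table summed to 73.5, 93.9 and 166 against 376, 226 and 71.9 CPM. Markers of monocytes, macrophages, neutrophils and dendritic cells, 14 of 15 in the table and none at 0 in all libraries, summed to 310.0 to 1848 CPM in WT and 785 to 2274 CPM in DKO. The upper ends rested on single genes: Itgax made up 471 of 591 counts in WT library 3, and Cxcr2 600 of 1171 in DKO library 3. T cell markers summed to 115 to 657 against 151.5 to 251 CPM, and stromal, endothelial and platelet markers to 416 to 748 against 394.5 to 502 CPM. Bcl11b made up 142 of the 210 T cell marker counts in WT library 3. All 10 T cell markers and all 10 stromal, endothelial and platelet markers also had a count in some library. Having a count therefore did not set B cells apart. The myeloid sum lay above the B cell sum in every library but WT library 1, though the lists differ in length. These markers thus check the labelled cell type only weakly. Transcripts of the mitochondrial genome, 13 genes, held 7.60%, 6.23% and 1.94% of the WT counts and 2.87%, 1.503% and 0.998% of the DKO counts. All 11 of them that were tested lay below 0, with a median log2 fold change of -2.53 (-1.79 on library totals), and none passed the edgeR test. The part of these differences, and of other cells, in the receptor counts was not tested. In such bulk samples, fewer cells of a type and less RNA per cell cannot be told apart.

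Of the 2 targeted genes, Bnip3l had more reads in the libraries labelled DKO and Bnip3 had fewer. In WT, Bnip3l (chromosome 14, 66985239 to 67008877) was at 3.20, 15.98 and 0 CPM, from 1, 8 and 0 reads. In the libraries labelled DKO it was at 22.5, 30.9 and 79.6 CPM, from 10, 16 and 41 reads. All 3 libraries labelled as lacking the gene thus held more of its reads than any WT library, and the highest was DKO library 3. On library totals the groups did not overlap, as for 24.4% of the tested genes in this direction. On TMM-scaled values WT library 2, at 30.9 CPM, lay above DKO libraries 1 and 2, at 22.6 and 29.5 CPM, and the groups overlapped. The edgeR log2 fold change (DKO against WT) was 1.76, with an SE of 1.19 and an adjusted p of 0.539. It was 2.58 with library totals alone and 3.94 without WT library 2. Summed over each group, the reads made up 7.94 CPM in WT and 45.4 CPM in DKO, a ratio of 5.71 with an exact 95% interval of 2.84 to 13.04 from counting alone.

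In WT, Bnip3 (chromosome 7, 138890836 to 138909519) was at 79.9, 123.9 and 18.8 CPM, from 25, 62 and 6 reads. In the libraries labelled DKO it was at 4.50, 46.4 and 21.4 CPM, from 2, 24 and 11 reads. On library totals WT library 3 lay below DKO libraries 2 and 3, and after TMM scaling, at 31.5 CPM, below DKO library 2 alone, at 44.2, so the groups overlapped on both scales. DKO library 1 was the only library labelled DKO under the level of 3 counts. The group means were 74.2 ± 52.8 against 24.1 ± 21.1 CPM (SD, n = 3 each). Its edgeR log2 fold change of -2.50 (SE 1.13) had an adjusted p of 0.412, and it was -1.65 with library totals alone and -1.73 without WT library 2. The group sums gave a ratio of 0.305 (0.203 to 0.452 from counting alone). The libraries labelled Nix-/-Bnip3-/- therefore held reads counted to both targeted genes. A total per gene does not separate a deleted exon from those that remain, nor a gene from its pseudogenes, and so checks the genotypes only in part.

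**Figure D2:**
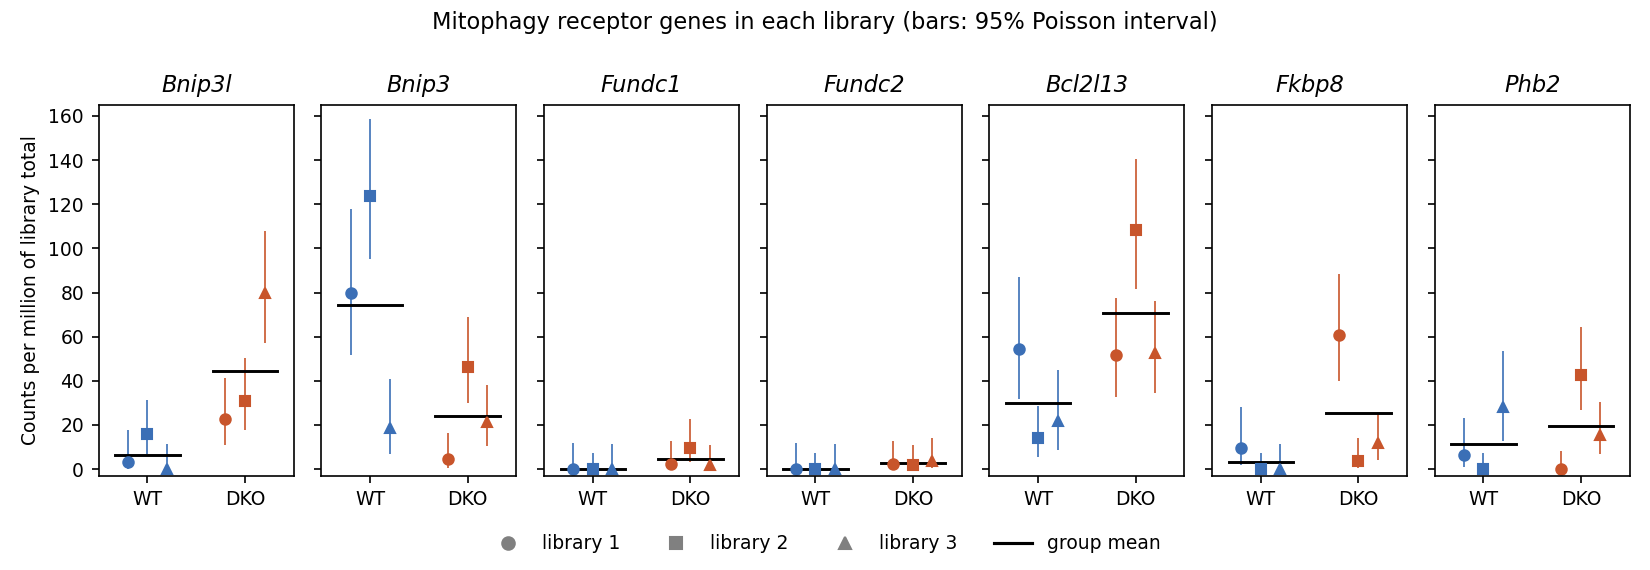
CPM on library totals for the 7 receptor genes, with 1 marker per library (circle, square and triangle for libraries 1, 2 and 3), its exact 95% Poisson interval and the group mean as a line. Bnip3l lies higher in every DKO library (22.5 to 79.6) than in the WT libraries (0 to 15.98), the WT mean of Bnip3 is 74.2 with 1 library at 18.8, and Fundc1 and Fundc2 are at 0 in WT.

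The balance between both targeted genes within a library needs no scaling, and its values did not overlap between the groups. Bnip3 made up 25 of 26, 62 of 70 and 6 of 6 of the reads of the pair in WT libraries 1, 2 and 3, or 96.2%, 88.6% and 100%. It made up 2 of 12, 24 of 40 and 11 of 52 in DKO libraries 1, 2 and 3, or 16.7%, 60.0% and 21.2%. Bnip3 was the main transcript of the pair in every WT library, whereas Bnip3l was in DKO libraries 1 and 3. In DKO library 2 Bnip3 still prevailed, with an exact (Clopper-Pearson) 95% interval of 43.3% to 75.1% that lay below the 78.7% to 94.9% of WT library 2. The interval of WT library 3, with 6 reads, reached from 54.1% to 100% and overlapped it. The means were 94.9% ± 5.8 in WT and 32.6% ± 23.8 in DKO (SD, n = 3 each). The difference was -62.3 percentage points and stayed between -54.3 and -76.0 when any 1 library was left out. Since the 2 genes were chosen with their counts known, this is a description and carries no test. How often the balance of other gene pairs keeps the groups apart was not computed. Reads of pseudogene copies may also enter these shares, and Gm16439 had 13 counts in DKO library 2.

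**Figure D3:**
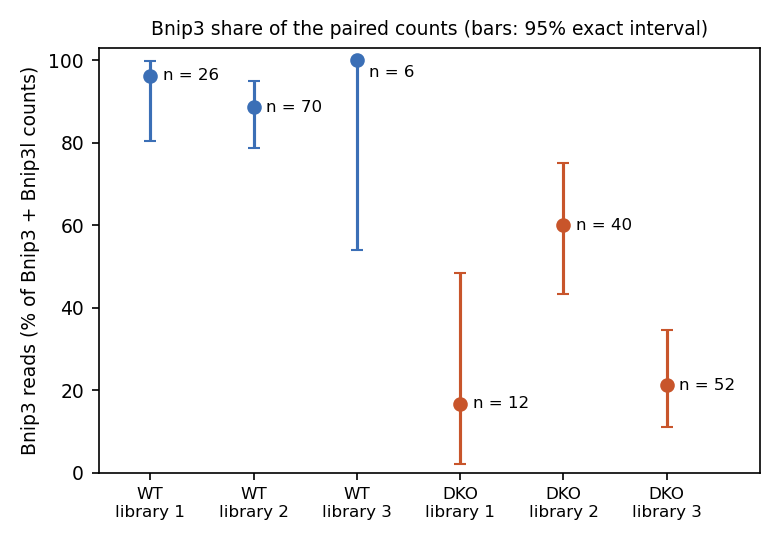
Reads of Bnip3 as a percentage of the summed Bnip3 and Bnip3l counts in each library, with exact 95% intervals and the number of reads of the pair beside each point. The WT libraries lie at 88.6% to 100% and the DKO libraries at 16.7% to 60.0%.

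Bcl2l13 (chromosome 6, 120836212 to 120892842) was, besides the targeted genes, the 1 receptor with enough counts to be tested. In WT it was at 54.3, 13.98 and 21.9 CPM, from 17, 7 and 7 reads. In DKO it was at 51.7, 108.3 and 52.4 CPM, from 23, 56 and 27 reads. WT library 1 lay at the level of DKO libraries 1 and 3, and DKO library 2 stood above the rest. On library totals the means were 30.1 ± 21.4 and 70.8 ± 32.5 CPM (SD, n = 3 each), and after TMM scaling they were 50.9 ± 33.2 and 69.1 ± 29.4. The edgeR log2 fold change of 0.45 (SE 0.94) had an adjusted p of 0.865. It was 1.21 with library totals alone and between 0.15 and 1.18 when 1 library was left out. Over 628 exonic bases it overlaps Bid, a death-promoting BCL-2 family gene on the opposite strand, which had 60, 22 and 2 counts in WT and 2, 31 and 35 in DKO.

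Fkbp8 (chromosome 8, 70527724 to 70535328) drew 3, 0 and 0 reads in WT and 27, 2 and 6 in DKO. In CPM this was 9.59, 0 and 0 against 60.7, 3.87 and 11.7. DKO library 1 alone held 71.1% of all its reads, and DKO library 2 lay below WT library 1. The ratio of the group sums was 8.96, with an interval of 2.82 to 45.5 from counting alone. Fkbp8 had too few counts for the main test. With genes kept at a mean of 10 CPM edgeR gave it a log2 fold change of 2.43 (SE 1.70, adjusted p = 0.515).

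Phb2 (chromosome 6, 124712336 to 124716950) drew 2, 0 and 9 reads in WT and 0, 22 and 8 in DKO, or 6.39, 0 and 28.1 CPM against 0, 42.5 and 15.5. Each group held 1 library without a read, and WT library 3 lay between DKO libraries 2 and 3. The ratio of the group sums was 2.09 (1.02 to 4.63 from counting alone). At a mean of 10 CPM edgeR gave it a log2 fold change of 0.17 (SE 1.65, adjusted p = 0.970). Its sign was below 0 without WT library 1 (-0.21) or without WT library 2 (-0.56), so these reads set no direction.

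The FUNDC genes were the least counted. Fundc1 (chromosome X, 17556564 to 17572325) drew no read in any WT library and 1, 5 and 1 reads in DKO. Fundc2 (chromosome X, 75382399 to 75396459) drew none in WT and 1, 1 and 2 in DKO. At the limit of 3 counts, a count of 0 allows up to 9.59, 5.99 and 9.38 CPM in WT libraries 1, 2 and 3 (11.8, 7.37 and 11.5 CPM by the exact two-sided interval plotted), whereas the highest DKO value was 9.67 CPM, for Fundc1 in library 2. For the ratio of the group sums, DKO over WT, the exact 95% interval began at 1.11 for Fundc1 and at 0.507 for Fundc2, from counting alone, and had no upper end. A pattern of 0 in each WT library and a read in each DKO library was seen for 1144 symbols, 3.67% of those with a count, and its mirror image for 44 (0.141%). Among the 3396 symbols with 4 to 7 counts in all, as these 2 genes had, 1204 (35.5%) had no WT read. DKO library 2 held 71.4% of the Fundc1 reads. Both genes had too few counts for the main test. With no filter on low counts, edgeR gave Fundc1 a log2 fold change of 3.90 (SE 2.38, adjusted p = 0.479). It gave Fundc2 3.20 (SE 2.33, adjusted p = 0.552), so neither gene had a detectable difference.

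Per length of exon, Bnip3 was the most abundant receptor in the WT libraries, and in the DKO libraries no neighbours in the order were separated. In WT the means were 32.7 ± 23.3 CPM per kilobase for Bnip3, 3.31 ± 2.35 for Bcl2l13, 3.10 ± 3.97 for Phb2, 1.66 ± 2.19 for Bnip3l and 0.706 ± 1.22 for Fkbp8 (SD, n = 3), with the FUNDC genes at 0. Bnip3, at 8.28 to 54.7 in the 3 libraries, did not overlap Bcl2l13, at 1.54 to 5.98. Below it, no neighbours in the order differed by more than their spread. In DKO the order was Bnip3l at 11.5 ± 7.99, Bnip3 at 10.6 ± 9.31, Bcl2l13 at 7.79 ± 3.57, Fkbp8 at 5.61 ± 6.81, Phb2 at 5.21 ± 5.79, Fundc1 at 1.96 ± 1.86 and Fundc2 at 0.966 ± 0.376 CPM per kilobase, and the libraries of all neighbours overlapped.

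Summed over the 7 genes, receptor reads numbered 48, 77 and 22 in WT and 64, 126 and 96 in DKO. On library totals this was 125.3 ± 49.0 CPM in WT and 191.4 ± 50.03 CPM in DKO. After TMM scaling the order turned, with 221.3 ± 94.5 against 187.5 ± 43.6 (SD, n = 3 each). The direction of the sum thus depended on the scaling. Without Bnip3l and Bnip3, the 5 receptors that were not targeted had 70.3, 13.99 and 50.02 CPM in WT libraries 1, 2 and 3 and 117.0, 166.3 and 85.5 CPM in DKO libraries 1, 2 and 3. These sums did not overlap on library totals, as was so for 24.4% of single tested genes in this direction. After TMM scaling the 5 receptors had 114.9, 27.1 and 84.0 against 117.6, 158.3 and 85.2, where WT library 1 lay above DKO library 3. The median log2 fold change of all tested genes was -0.17 after TMM scaling and 0.62 on library totals, so library totals shifted the typical gene towards DKO as well.

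**Figure D4:**
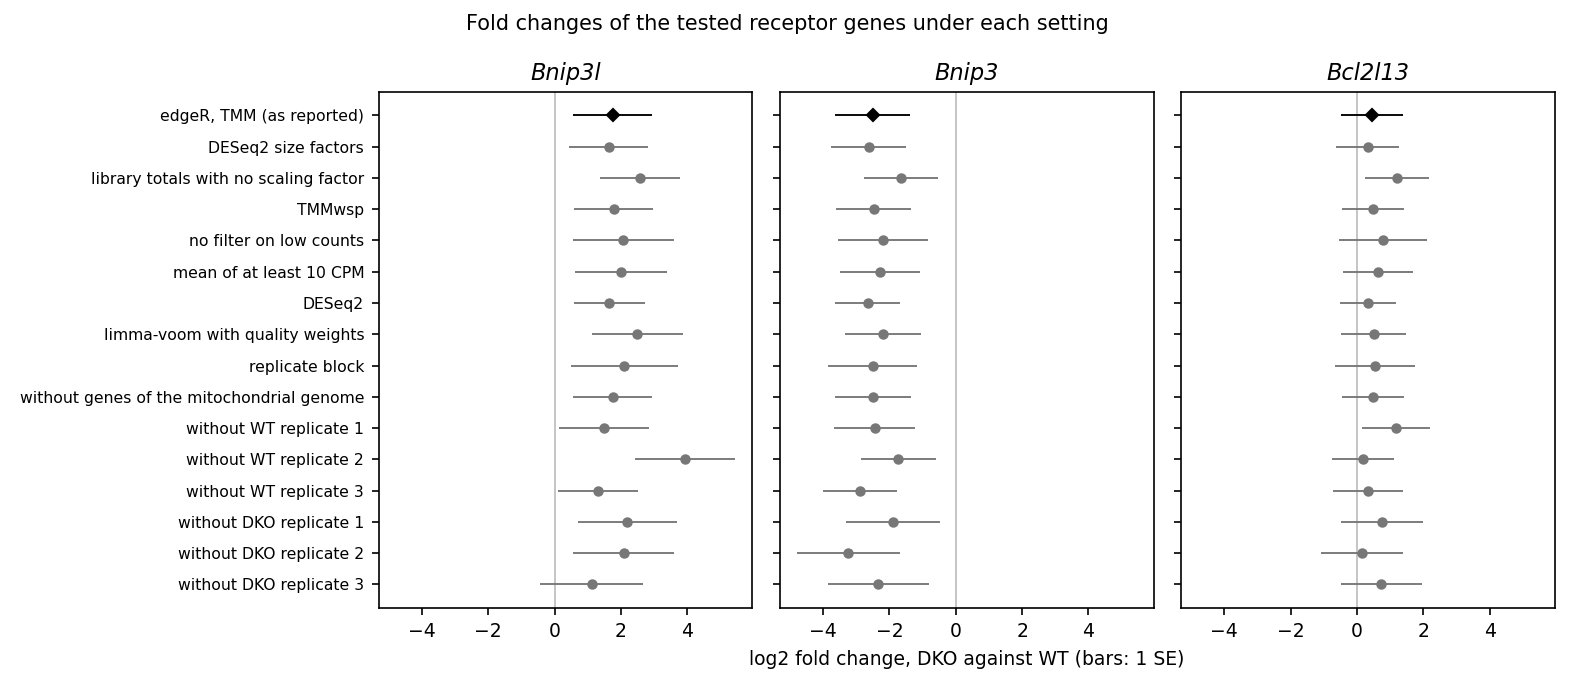
Log2 fold changes of Bnip3l, Bnip3 and Bcl2l13, DKO against WT, with 1 SE, from the fit reported (black diamond) and each of 15 other settings (grey). The values run from 1.12 to 3.94 for Bnip3l, from -3.24 to -1.65 for Bnip3 and from 0.15 to 1.21 for Bcl2l13.

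The receptors act by binding the LC3 and GABARAP proteins, whose genes were as thinly counted. Map1lc3a was at 0 in all libraries. Map1lc3b, the gene of the most used autophagosome marker, had 0, 34 and 14 counts in WT and 32, 51 and 81 in DKO, with a log2 fold change of 0.64 (SE 1.20, edgeR adjusted p = 0.843). Gabarap, at 2, 0 and 1 counts in WT and 18, 11 and 8 in DKO, was higher in each DKO library, and too low to be tested. Of the tested genes, 24.4% did not overlap in this direction on library totals and 12.8% after TMM scaling. Gabarapl1 had 6, 9 and 0 against 1, 14 and 18, and Gabarapl2 had 5, 0 and 4 against 3, 14 and 3, both with groups that overlapped.

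Among 26 kinases, proteases, ligases and binding partners of the receptors, 24 were in the table and 12 were tested, 3 with a log2 fold change above 0 and 9 below (median -0.71, or 0.03 on library totals). None passed the edgeR test. Rheb, a small GTPase that drives mTOR and binds NIX, had 10, 5 and 4 counts in WT and 78, 74 and 55 in DKO (log2 fold change 2.17, SE 0.95, edgeR adjusted p = 0.404), with groups that did not overlap, as for 12.8% of tested genes in this direction after TMM scaling. Ulk1, the kinase that starts autophagy and phosphorylates FUNDC1, had 35, 173 and 7 counts in WT and 10, 3 and 28 in DKO. The edgeR log2 fold change of -3.42 (SE 1.31) had an adjusted p of 0.390 (DESeq2 adjusted p = 0.0244), and it was -1.95 without WT library 2, which held most of its reads. Mul1, a mitochondrial ubiquitin ligase, had 5, 92 and 0 counts against 16, 11 and 4, and Dnm1l, the fission GTPase that FUNDC1 recruits, 27, 12 and 21 against 16, 27 and 17. Fbxl4, whose product lowers the amount of BNIP3 and NIX protein, was not tested: it had 3, 7 and 360 counts in WT and 5, 3 and 5 in DKO, so that its reads lay almost wholly in WT library 3.

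Of the 22 genes of ubiquitin-dependent mitophagy, 17 were tested, 9 above 0 and 8 below (median 0.18, or 1.04 on library totals), and none passed the edgeR test. The soluble adaptor Calcoco2 drew no WT read and 21, 52 and 24 reads in DKO (edgeR adjusted p = 0.389; DESeq2 adjusted p = 0.00385). Usp30, the deubiquitinase of the outer membrane, had 0, 90 and 130 counts against 12, 12 and 6 (DESeq2 adjusted p = 0.0183). Park2, the gene of parkin, had 10, 46 and 24 against 11, 15 and 14, lower in each DKO library after TMM scaling, as were 6.39% of tested genes. Rhot1, an outer membrane GTPase that parkin marks, had 13, 28 and 20 against 131, 155 and 102 (log2 fold change 1.47, SE 0.94, edgeR adjusted p = 0.515). Pink1 was not tested, at 5, 17 and 16 against 2, 4 and 5 counts.

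Regulators known to act on Bnip3 or Bnip3l transcription lay on both sides: of 21 listed, 13 were tested, 8 above 0 and 5 below (median 0.14, or 0.87 on library totals), and none passed the edgeR test. Egln1, the oxygen sensor that has hypoxia-inducible factors degraded, had 2, 5 and 0 counts in WT and 148, 14 and 131 in DKO (log2 fold change 4.27, SE 1.36, edgeR adjusted p = 0.390; DESeq2 adjusted p = 0.0123). Foxo1, of the forkhead family that can induce Bnip3, had 4, 4 and 1 against 18, 32 and 18. Ppargc1a, a coactivator of mitochondrial genes, had 46, 50 and 10 against 5, 3 and 9 (log2 fold change -3.79, SE 1.07, edgeR adjusted p = 0.390; DESeq2 adjusted p = 0.00258). Nfkb1, an NF-kB subunit gene, had 18, 92 and 37 against 12, 15 and 2 (edgeR adjusted p = 0.390; DESeq2 adjusted p = 0.00643). Hif1a itself, which is controlled mainly at the protein level, had 10, 0 and 7 counts in WT and 8, 11 and 39 in DKO (log2 fold change 0.38, edgeR adjusted p = 0.920).

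Other targets of hypoxia-inducible factors lay on both sides of 0. Of 26 listed, 12 were tested, 6 above 0 and 6 below (median -0.27, or 0.48 on library totals), and none passed the edgeR test. P4ha1 and P4ha2, genes of collagen prolyl hydroxylases, had 1, 8 and 10 counts against 43, 49 and 42, and 4, 8 and 5 against 21, 43 and 64. Both had groups that did not overlap after TMM scaling, as did 12.8% of tested genes in this direction. The histone demethylase gene Kdm3a had 11, 7 and 8 counts against 24, 107 and 37, while Pfkfb4, a regulator of glycolysis, had 5, 120 and 51 against 20, 48 and 6.

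The Bnip3 promoter is a textbook site of hypoxia-inducible factors, whose core motif reads ACGTG or GCGTG, and is shown for that reason, as the 250 bases before the RefSeq start (GRCm38.p6, chr7:138909507-138909756, minus strand). Capitals mark each match on either strand, where adjoining or overlapping matches run together.
Bnip3 promoter: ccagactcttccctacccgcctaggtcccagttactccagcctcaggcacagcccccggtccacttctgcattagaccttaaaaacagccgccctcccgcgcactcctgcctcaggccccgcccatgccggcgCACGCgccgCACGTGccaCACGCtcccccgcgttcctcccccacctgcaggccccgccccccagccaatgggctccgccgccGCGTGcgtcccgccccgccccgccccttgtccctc
The window held 2 matches to ACGTG, which overlap in 1 palindrome, and 3 to GCGTG. Of the 6 receptor genes with a RefSeq promoter window of 300 bases, 5 held a match, where 43.8% of all 32851 windows did, and Fundc1 had none. No window was found for Bnip3l, so its promoter was not read. A match is a description of the letters and says nothing of a factor bound there in these cells.

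Erythroid cells are known for abundant Bnip3l, so their markers were read as well. Of 13 such markers 11 were in the table. The globin genes Hbb-bs and Hba-a2 were at 0 in all libraries, Hbb-bt had 12 counts in WT library 2 alone and Hba-a1 4 counts in WT library 1 alone. The markers summed to 141 to 166 CPM in WT and 205 to 299.8 CPM in DKO, of which the transferrin receptor gene Tfrc, also used by other dividing cells, made up 14, 61 and 14 counts in WT and 75, 117 and 94 in DKO. Alas2, of haem synthesis, had 1, 3 and 1 counts against 9, 3 and 0, and the transcription factor gene Klf1 5 counts, in DKO library 3 alone. On library totals the sum was higher in each DKO library than in any WT library, as were 24.4% of single tested genes. The groups overlapped after TMM scaling of the sum (272, 298 and 236 CPM in WT, 206, 285 and 238 in DKO). Its part in the Bnip3l counts was not tested.

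The genes whose values over the 6 libraries were most like those of a receptor were found by the root mean square difference of centred log2 values. For Bnip3l these were Psmb2, a proteasome subunit gene (0.406), and Nde1, a dynein regulator gene (0.464), against a median of 2.39 over 7944 genes compared. For Bnip3 they were Ublcp1 (0.489) and Zfyve27 (0.561), with a median of 2.29, and for Bcl2l13 Ctr9 and Erp29 (0.169 each), with a median of 1.504. Psmb2 had 1, 17 and 0 counts in WT and 12, 17 and 36 in DKO, much like Bnip3l. Ublcp1 had 28, 50 and 5 against 2, 14 and 20. With 6 libraries and 7944 genes, some are close to any pattern.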

How the data were processed

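RNA-seq counts of 3 WT and 3 DKO libraries were used. Per the labels' protocols, libraries enriched for polyadenylated RNA were made from sorted cells with a commercial single-cell RNA kit. The authors deposited raw read counts per gene symbol. Without roles, mm10, R 3.6.3, edgeR, STAR and CASAVA appear in the submitters' processing notes. Counter, strand setting and annotation: not given in the sources used here. Columns were matched to samples by name, and 0 were left over.

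The groups were compared in R 4.3.3 by edgeR 4.0.16 with limma 3.58.1 (filterByExpr at a minimum count of 10, TMM, robust quasi-likelihood F test, no covariate), with Benjamini-Hochberg adjustment over the 8895 genes kept. Fold changes are log2, and SE is the fold change over the square root of F. CPM divides by the library total unless called TMM-scaled. Intervals are exact Poisson, binomial or conditional binomial at 95% (Python 3.11.15, scipy 1.17.1). Lengths, positions and 50-base windows are from GENCODE M21 (GRCm38, mm10); promoters are from RefSeq. Groups hold 3 libraries, so an exact permutation test could not go below 0.1 and none was used.

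The 7 genes and the gene lists were chosen with earlier results of these data known. Named genes were the receptors, the LC3 and GABARAP genes, the 4 genes with the smallest p in each other pathway list, and the 2 genes most like each tested receptor (prior of 1 CPM), leaving out predicted genes, pseudogenes and immunoglobulin segments. Fbxl4, Pink1, Hif1a, Bid, Cd79a, Blnk, Ms4a1, Itgax, Cxcr2, Bcl11b, the erythroid genes and the pseudogenes were named after their values were seen. Alternatives were other scalings, filters and tests (DESeq2 1.42.0, limma-voom), a replicate block, each library left out, and no mitochondrial genes. Simulated counts with known changes were used to test the edgeR steps.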

Additional observations from a re-analysis of the deposited data

How the results depend on the processing

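The log2 fold changes of Bnip3l, Bnip3 and Bcl2l13 kept their sign, and none passed an adjusted p of 0.05, in all 15 alternatives run for each; with 1 library left out they ranged from 1.12 to 3.94, from -3.24 to -1.73 and from 0.15 to 1.18. The count of called genes moved from 0 to 22 higher and 108 lower with no filter on low counts, and to 218 higher and 383 lower in DESeq2; the cause was not tested. Among the other genes named, Ctr9 (-0.18 to 0.97 with 1 library left out) turned below 0 without WT replicate 2 (-0.04) and without DKO replicate 2 (-0.18), and DESeq2 called Ulk1, Calcoco2, Usp30, Ppargc1a, Egln1 and Nfkb1. The summed receptor difference, DKO minus WT, went from 66.0 CPM to -33.7 with TMM scaling and ranged from 37.8 without WT replicate 3 to 89.7 without DKO replicate 1, and the Bnip3 share differed by -55.6 points with summed counts and -54.0 per exonic length. With the replicate number as a block, 0 genes were called, and the values were 2.10 for Bnip3l, -2.50 for Bnip3 and 0.54 for Bcl2l13. Same-numbered libraries correlated at 0.023 to 0.037 in their deviations from the group means, and all other pairs at -0.024 to -0.004. Each library thus correlated best with its own number, though weakly, and whether the numbers pair the samples cannot be told. The main fit used no pairing because the labels do not say that a number marks a shared animal or day. Depth limits Fundc1, Fundc2, Fkbp8 and Phb2 most, which had 4 to 41 reads in all.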
